A study of Rattus norvegicus with 23 samples.

Results

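The genes described here are 9 genes of lung macrophages, the scavenger and pattern receptors Marco, Msr1, Cd163, Mrc1, Cd14 and Siglec1, the surface receptor Adgre1, the lysosomal protein Cd68 and the nuclear receptor Pparg. They were chosen by name, and all 9 were among the 23030 genes tested, through 10 of the 45598 probes of the array. RNA came from the accessory lobe of the lung of male F344 rats aged 19 months at the start of exposure, with 1 rat on each of 23 single-colour arrays. The control rats breathed filtered air and the exposed rats breathed a TiO2 nano-aerosol (Aeroxide P25) at 10 mg/m3 through the nose only, in daily sessions adding up to 6 h, on 5 days of each of 4 weeks. Lungs were taken at the end of exposure (D0, 6 control and 5 exposed rats) or 28 days later (D28, 6 control and 6 exposed rats). The methods of the study speak of 6 rats per group, so 1 exposed rat of D0 is not analysed here. For the exposed arrays of D28 the source label reads day 0, and the titles, the descriptions and the methods, which give day 28, were followed.

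Scavenger receptors bind oxidised lipids, bacterial surfaces and uncoated particles, and macrophages use them to take up material that has not been tagged by antibody or complement. In the lung, alveolar macrophages meet inhaled particles first. MARCO and the class A receptor encoded by Msr1 bind uncoated mineral particles, among them TiO2. PPARG, switched on in fetal monocytes by GM-CSF, is needed for the alveolar macrophage to form and to handle surfactant lipid. Other macrophages live in the interstitium and around vessels, where CD163 and the mannose receptor are typical surface proteins. Whole tissue was measured, so more or fewer cells of a type and more or less RNA in each cell cannot be told apart.

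Values are log2 processed signals after quantile normalization, and a difference of 1 is a doubling of the signal. Because probes differ in how strongly they bind, the level of one gene cannot be set against that of another. The p-values come from 1 limma model over all genes and arrays, adjusted by the Benjamini-Hochberg method. A gene is said here to have risen or fallen when its adjusted p was below 0.05 and its fold change (FC) was at least 1.5. On each array, 69.5% to 77.9% of the gene spots passed the software's mark for a signal well above background. The arrays lay on 5 slides, of which 3 held all 4 groups, and control replicate 4 of D28 had a slide to itself and was read with another version of the scanner software.

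The probes of 8 of the 9 genes were well above background on all 23 arrays. Marco was the exception. Its single probe is a 60-mer that spans an exon junction, covering 163 bases of the rn4 build (chrUn:9449917-9450079, not placed on a chromosome there), and its letters are shown because the reading of Marco rests on this sequence alone:
Marco probe: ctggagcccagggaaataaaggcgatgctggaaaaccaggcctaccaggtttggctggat

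On D0, 1 of the 9 genes, Siglec1, rose in the exposed rats, none fell, and 7 had a log2 FC above 0. Among all genes tested, 1.09% rose on D0, 1.79% rose or fell, and 49.9% had a log2 FC above 0. On D28 no member rose or fell, against 0.756% of all genes, and 7 again had a log2 FC above 0, against 48.9% of all genes. When the adjusted p alone was asked for, 2 members passed on D0, Siglec1 and Cd68, against 2.86% of all genes, and 1 passed on D28, Cd68, against 1.32%. The median log2 FC of the 9 genes was 0.30 on D0 and 0.13 on D28, and over all genes it lay within 0.01 of 0 on both days. These medians and the counts of 7 include Marco, whose signals were mostly not well above background.

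**Figure D1:**
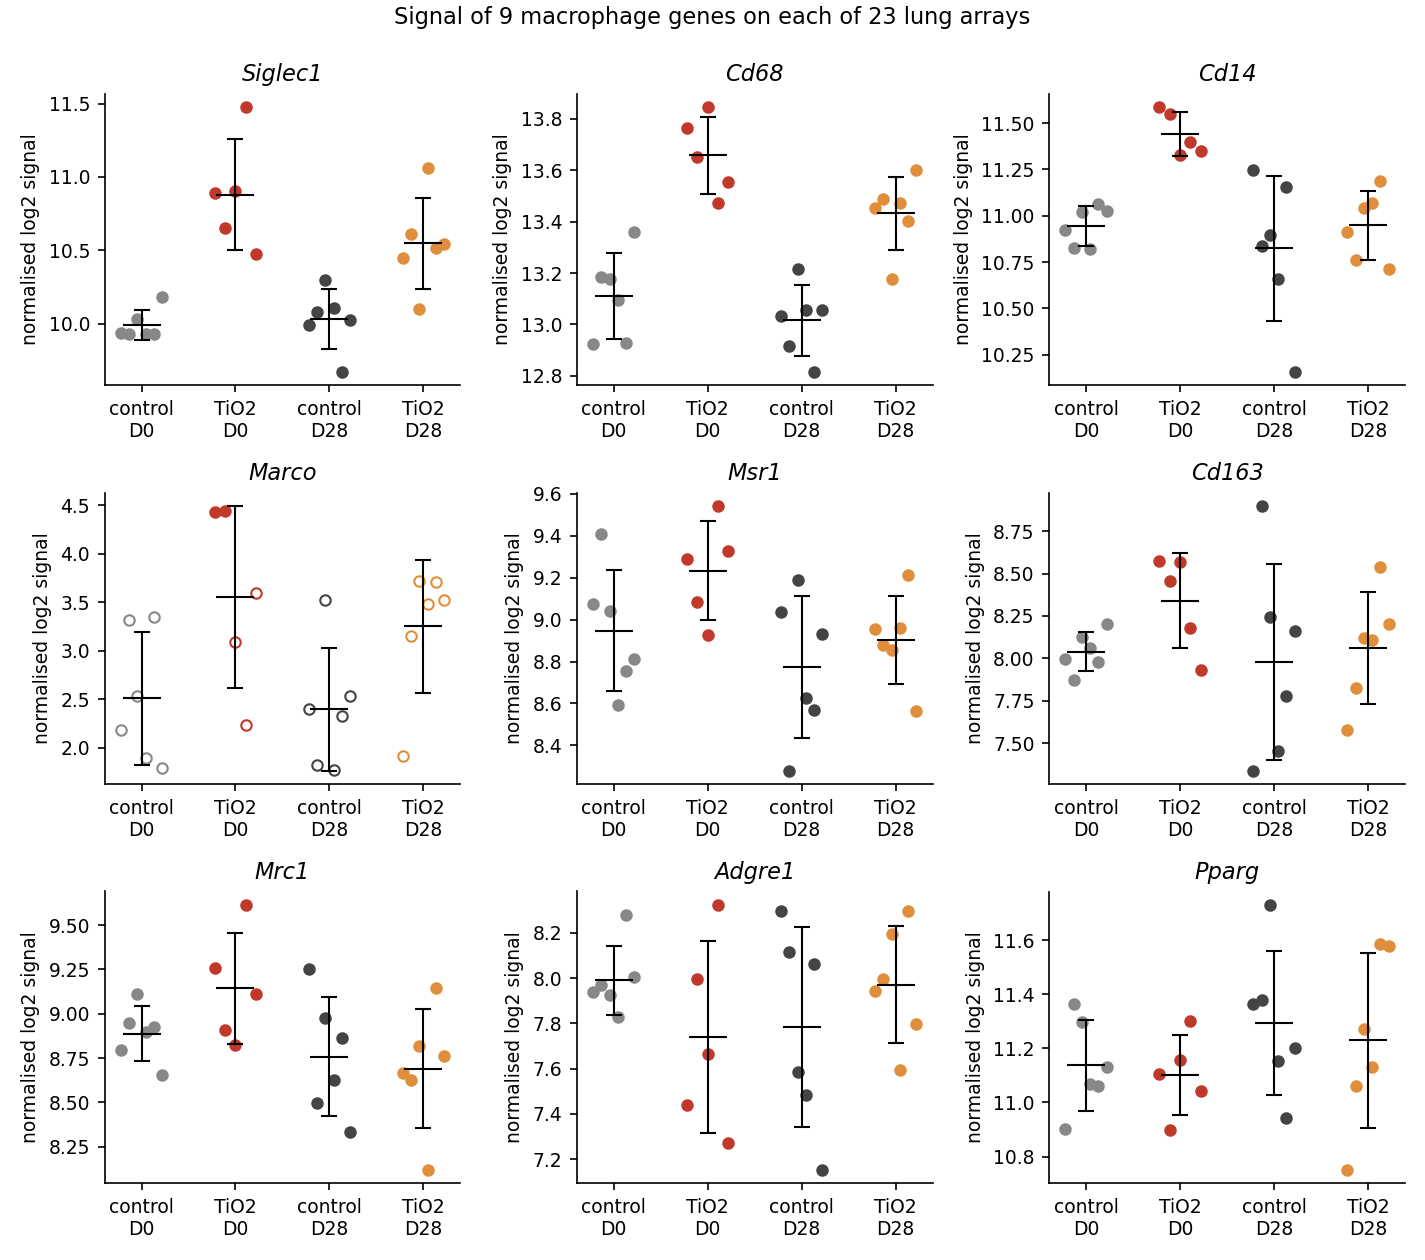
Normalised log2 signal of each of the 9 genes (vertical axes, each with its own range) on every array, by group (horizontal axis). Each point is 1 rat, bars give the group mean and SD, and open points in the Marco panel are arrays on which its probe was not well above background. Siglec1, Cd68 and Cd14 of the exposed rats of D0 lie above all controls of that day, while the groups of the other genes overlap.

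Siglec1 encodes sialoadhesin (CD169), a lectin for sialic acids that tissue macrophages carry on their surface. On D0 its log2 signal in the exposed rats was 10.89, 10.65, 10.90, 11.48 and 10.47, and in the controls it ran from 9.93 to 10.18 with a median of 9.93. Every exposed rat was above every control, a separation that 1.94% of all genes showed. The FC was 1.85 (log2 FC 0.89 ± 0.16 SE, limma adjusted p = 0.0026), with a 95% interval from 1.47 to 2.33. The rise was present in each of 4 slides that held both groups, by 0.58 to 1.55 on the log2 scale. Each slide held only 1 or 2 arrays of a group, the same rats as in the test.

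On D28 Siglec1 ran from 10.10 to 11.06 in the exposed rats, with a median of 10.53, and from 9.67 to 10.30 in the controls, with a median of 10.05. Exposed rats were above all controls in 5 of 6 cases, and replicate 3 lay within the control range. The log2 FC of 0.52 ± 0.15 (SE) did not pass the test (limma adjusted p = 0.107). Without exposed replicate 3 it was 0.61 with an adjusted p of 0.049, past both limits. Within the 3 slides that held both groups the differences were 0.48 to 0.62.

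Cd68 encodes macrosialin, a heavily glycosylated protein of the lysosomal and endosomal membrane that is widely used to mark macrophages. Its log2 signal on D0 was 13.76, 13.65, 13.85, 13.47 and 13.55 in the exposed rats, and 12.92 to 13.36 in the controls (median 13.14). Again no control reached an exposed rat. The FC of 1.46 (95% interval 1.27 to 1.68, log2 FC 0.55 ± 0.10 SE) had a limma adjusted p of 0.0029, but it lay just under the limit of 1.5. It passed that limit without control replicate 6 (log2 FC 0.60) and without exposed replicate 4 (log2 FC 0.59).

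On D28 Cd68 ran from 13.18 to 13.60 in the exposed rats, with a median of 13.46, and from 12.82 to 13.22 in the controls, with a median of 13.04. Of 6 exposed rats, 5 were above all controls. The log2 FC was 0.42 ± 0.09 (SE), a FC of 1.33 with a limma adjusted p of 0.029. That p was above 0.05 when control replicates 2 or 5 or exposed replicates 1, 2, 4 or 6 of D28 were left out (0.053 to 0.076), and it was 0.143 when only the arrays of D28 were fitted. Cd68 differed least between slides: exposed rats were higher by 0.47 to 0.58 in 4 of 4 slides on D0 and by 0.36 to 0.47 in 3 of 3 on D28.

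**Figure D2:**
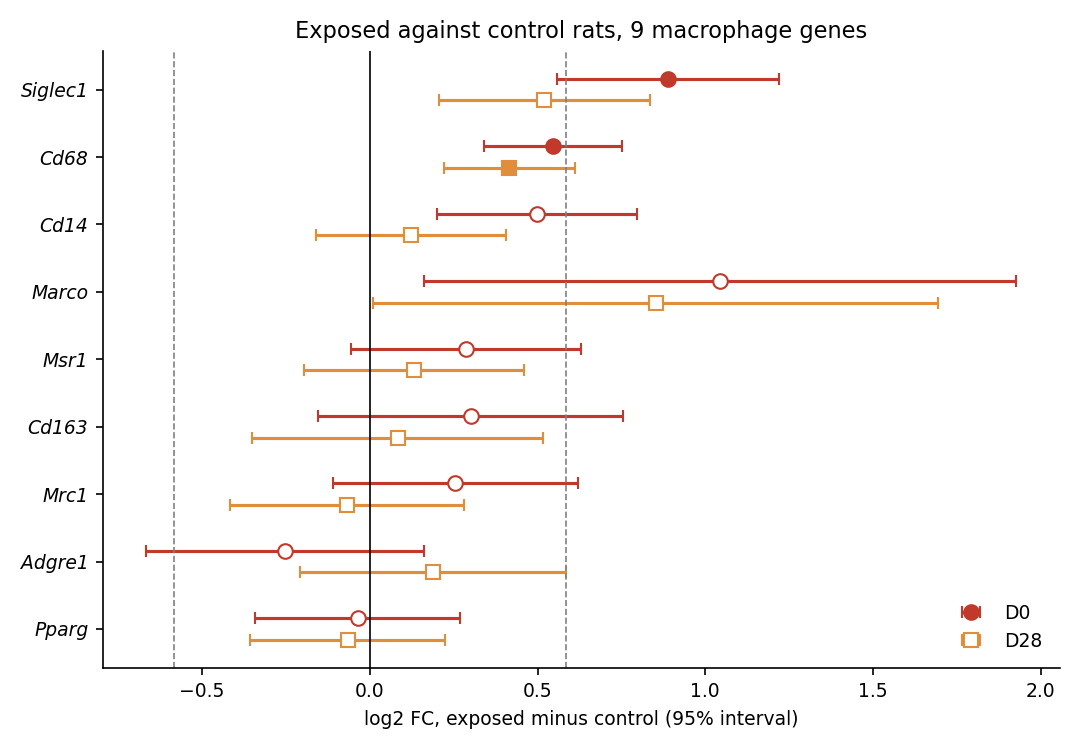
log2 FC of exposed against control rats (horizontal axis) for each gene (rows), with 95% intervals, on D0 (circles) and D28 (squares). Filled symbols had an adjusted p below 0.05 and dashed lines mark a FC of 1.5. Siglec1 on D0 is filled and past the line, and Cd68 is filled on both days and short of it. The points of Marco are fitted from signals mostly not well above background.

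The stretch of 250 bases before the start of Cd68 (RefSeq, GRCr8, chr10:54882442-54882691, minus strand, read towards the gene) is shown because Cd68 was the gene past the adjusted p on both days. Capitals mark letters that match the AP-1 motif TGANTCA, at -205 and -80, and, on the other strand, the PU.1 motif GAGGAA, at -27, counted from the start of the gene. PU.1 is the transcription factor that macrophages depend on:
Cd68 promoter: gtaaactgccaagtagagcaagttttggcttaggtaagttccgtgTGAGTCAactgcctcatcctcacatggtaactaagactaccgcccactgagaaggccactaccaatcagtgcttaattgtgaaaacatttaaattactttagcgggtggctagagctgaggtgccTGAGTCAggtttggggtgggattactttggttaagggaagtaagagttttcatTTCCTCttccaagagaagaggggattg

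Of 33469 rat promoters of this length, searched on both strands, 23.3% held the PU.1 letters and 6.34% the AP-1 letters. Sequences were given for 7 of the 9 genes, without Siglec1 and Msr1. The PU.1 letters were also found before Cd14 (at -140 and -105), Mrc1 (-180 and -35), Marco (-104), Adgre1 (-207) and the first of 2 Pparg starts (-182), and the AP-1 letters before the second Pparg start (-37). The interferon response motif, searched as GAAA and GAAA with 2 bases between them and held by 3.41% of promoters, were found before Adgre1 (-219). The NF-kB motif, searched as GGGA and CC with 4 bases between them and held by 16.4%, were found before Cd163 (-64 and -45) and the first Pparg start (-22). A match gives letters only, and no binding was measured.

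Cd14 encodes the receptor that hands bacterial lipopolysaccharide (LPS) to the TLR4 and MD-2 complex. On D0 its log2 signal was 11.59, 11.55, 11.33, 11.40 and 11.35 in the exposed rats against 10.82 to 11.06 in the controls (median 10.97), with no overlap. The FC was 1.41 (95% interval 1.15 to 1.74, log2 FC 0.50 ± 0.14 SE) and missed the threshold after adjustment (limma adjusted p = 0.068, unadjusted 0.0023). The spread of Cd14 was not alike in the groups, with an SD of 0.11 and 0.12 on D0 and of 0.39 in the controls of D28, which share the estimate of the spread. With the arrays of D0 alone the adjusted p was 0.011, and without control replicate 1 or 6 of D28 it was 0.046 or 0.013, always with a FC under 1.5. Within 4 slides the difference was 0.30 to 0.76.

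By D28 Cd14 had a median of 10.98 in the exposed rats (10.71 to 11.19) and of 10.87 in the controls (10.16 to 11.25), and the groups overlapped fully (log2 FC 0.12 ± 0.14 SE, limma adjusted p = 0.84). Between the exposed rats of the 2 days, D28 against D0, the difference was -0.50 ± 0.14 (SE) on the log2 scale. Its unadjusted p was 0.0024 and its limma adjusted p was 0.21.

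Marco encodes a class A scavenger receptor with a collagen-like stalk. Its probe, shown above, was well above background on 0 of 6 control arrays of D0, 2 of 5 exposed arrays of D0 (replicates 1 and 2) and on none of the 12 arrays of D28. The log2 signal was 4.43, 4.44, 3.09, 2.23 and 3.59 in the exposed rats of D0 and 1.80 to 3.35 in the controls (median 2.36). Of the 5 exposed rats, 3 were above all controls. The group means were 3.56 and 2.51, and the difference did not pass (limma adjusted p = 0.27). No fold is given, since 3 of the 5 exposed arrays and all 6 control arrays were not well above background. On D28 the values of both groups, 1.92 to 3.72 and 1.77 to 3.53, were not well above background, and no fold is given there either.

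Msr1 encodes the other classical class A receptor, which also takes up modified low-density lipoprotein. Its log2 signal on D0 was 9.29, 9.08, 8.93, 9.54 and 9.33 in the exposed rats and 8.59 to 9.41 in the controls (median 8.93), and the groups overlapped. The log2 FC was 0.29 ± 0.17 (SE, limma adjusted p = 0.58) on D0 and 0.13 ± 0.16 (adjusted p = 0.86) on D28, where exposed rats ran from 8.56 to 9.21 and controls from 8.28 to 9.19. The 2 probes of Msr1 gave 0.34 and 0.24 on D0 and 0.24 and 0.02 on D28. The 95% intervals of the FC reached from 0.96 to 1.55 on D0 and from 0.87 to 1.37 on D28.

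Cd163, the receptor for complexes of haemoglobin with haptoglobin, had log2 signals of 8.57, 8.45, 8.57, 8.18 and 7.93 in the exposed rats of D0 and of 7.87 to 8.20 in the controls (median 8.03). While 3 of 5 exposed rats were above all controls, the log2 FC of 0.30 ± 0.22 (SE) did not pass (limma adjusted p = 0.73). On D28 it was 0.08 ± 0.21 (adjusted p = 0.95). The controls of D28 were widely spread, from 7.34 to 8.90, around the exposed range of 7.58 to 8.54.

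Mrc1, the mannose receptor, which binds sugars that end in mannose or fucose, was at 9.26, 8.91, 8.82, 9.61 and 9.11 in the exposed rats of D0 and at 8.65 to 9.11 in the controls (median 8.91). Its log2 FC was 0.26 ± 0.18 (SE, limma adjusted p = 0.70) on D0 and -0.07 ± 0.17 (adjusted p = 0.95) on D28. On D28 the groups covered almost the same range, 8.12 to 9.15 in exposed and 8.33 to 9.26 in control rats.

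Adgre1 encodes the protein of the F4/80 antigen, a surface receptor that marks many tissue macrophages of rodents. Among the exposed rats of D0 the log2 signal was 7.44, 7.996, 7.67, 8.32 and 7.27, and among the controls it was 7.83 to 8.28 (median 7.95). The exposed rats lay on both sides of the controls, 3 below all of them and 1 above. The log2 FC was -0.25 ± 0.20 (SE, limma adjusted p = 0.78) on D0 and 0.19 ± 0.19 (adjusted p = 0.82) on D28, when exposed rats ran from 7.59 to 8.30 and controls from 7.15 to 8.30.

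Pparg differed least of the 9 genes on D0. Its log2 signal was 11.10, 10.90, 11.16, 11.30 and 11.04 in the exposed rats of D0, inside or next to the control range of 10.90 to 11.37 (median 11.10). The log2 FC was -0.04 ± 0.15 (SE, limma adjusted p = 0.996) on D0 and -0.07 ± 0.14 (adjusted p = 0.94) on D28. The 95% intervals of the FC were 0.79 to 1.20 and 0.78 to 1.17, so a change of 1.5-fold lay outside both.

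The effects of the 2 days were then compared directly. No member differed between D28 and D0 in its response to exposure (0 of 9, all with a limma adjusted p of 0.9999 and 0 with an unadjusted p below 0.05), against 0.0304% of all genes by adjusted p and 3.44% by unadjusted p. The differences of the log2 FC ran from -0.37 for Cd14 and Siglec1 to 0.44 for Adgre1. For Siglec1 the 95% interval reached from -0.83 to 0.09, which leaves room for a fall of the response as well as for none. In the controls, D28 against D0, 0 of 9 members rose or fell (0.608% of all genes did), none had an unadjusted p below 0.05 (13.3% of all genes had), and the log2 differences ran from -0.21 for Adgre1 to 0.16 for Pparg. In the exposed rats 0 of 9 rose or fell (0.352% of all genes did). There, 4 members had an unadjusted p below 0.05, against 7.71% of all genes, all lower on D28: Cd14, Mrc1 (-0.45), Siglec1 (-0.33) and Cd68 (-0.23), with limma adjusted p-values of 0.21 to 0.65.

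**Figure D3:**
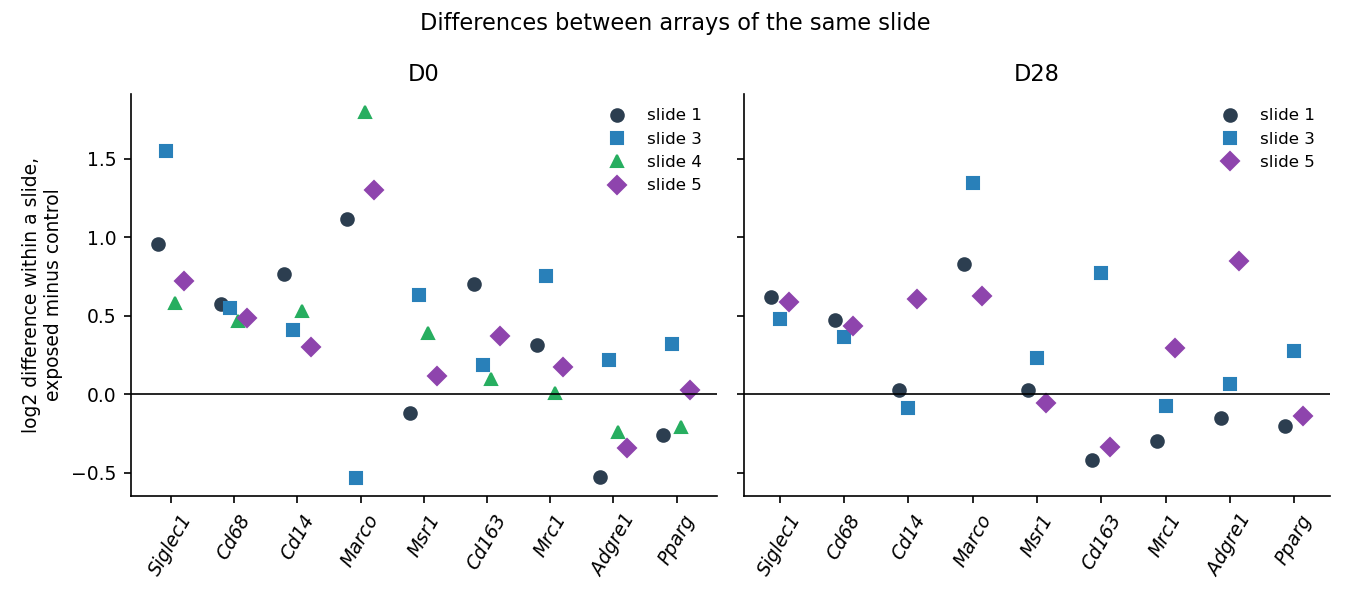
Difference in log2 signal between exposed and control arrays of the same slide (vertical axis) for each gene (horizontal axis), on D0 (left) and D28 (right), with 1 symbol for each slide. Each symbol rests on 1 or 2 arrays of each group. Siglec1 and Cd68 are above 0 on every slide of both days and Cd14 on every slide of D0. Msr1, Adgre1 and Pparg lie on both sides of 0 on both days.

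Within groups, the members did not vary as 1 block from rat to rat. Values were centred on their group means and correlated over the 23 arrays, leaving out Marco. Of 28 pairs, 18 had a Pearson r above 0, with a median of 0.10 and a range from -0.43 (Adgre1 and Cd68) to 0.62 (Adgre1 and Cd14). These are descriptions, since the arrays share slides. With slide means removed as well, the first pair had an r of 0.15 and the second of 0.42. For Siglec1 and Cd68, r was 0.35 (Spearman rho 0.53), 0.73 without the 2 arrays farthest from the median of Siglec1 and 0.23 with slide means removed.

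**Figure D4:**
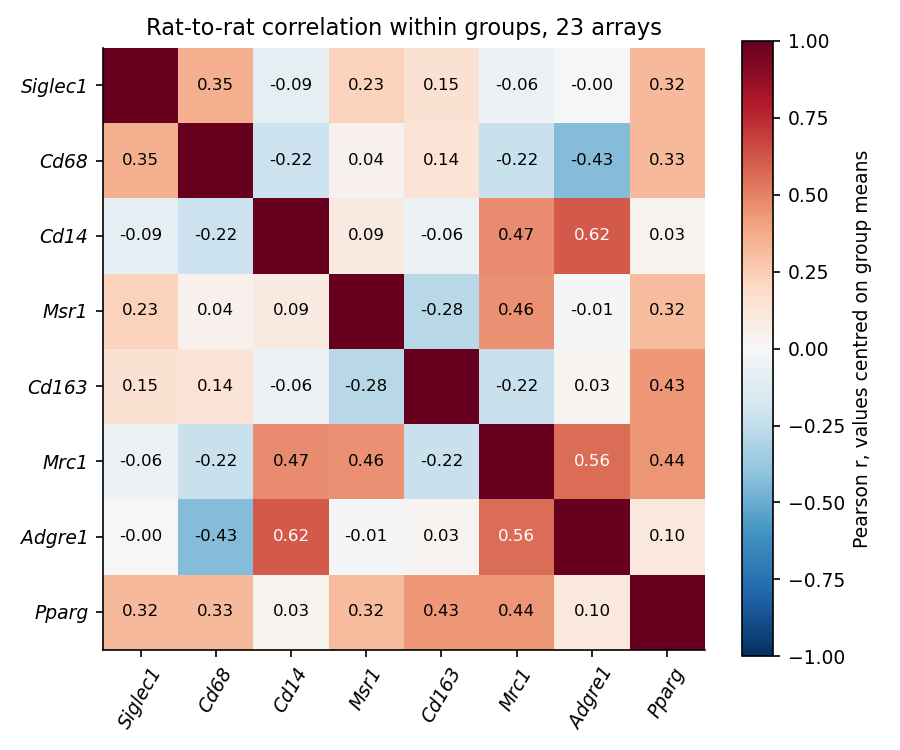
Pearson correlation over 23 arrays between pairs of 8 genes (rows and columns), with values centred on group means and the colour scale from -1 to 1. Mrc1, Adgre1 and Cd14 correlate at 0.47 to 0.62 with each other, and Cd68 is below 0 with all of these. With slide means removed as well (not drawn), Cd68 was above 0 with Mrc1 (0.58), Adgre1 (0.15) and Cd14 (0.47). The r of Mrc1 was then 0.27 with Adgre1 and 0.13 with Cd14, and that of Adgre1 with Cd14 was 0.42.

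The genes that followed a member most closely within groups were sought among 15641 genes well above background on all arrays, over the same 23 arrays. For Mrc1 they were Axl (r = 0.94), a receptor tyrosine kinase that takes part in the clearance of dead cells, Aoah (0.91), which inactivates LPS, and Acad11 (0.90). With slide means removed, r was 0.91 for Axl and 0.87 for Aoah. For Siglec1 they were Stat2 (0.82), a transcription factor of the type I interferon response, Lilrb3 (0.80) and LOC103690756 (0.80). Cd14 went with Ncf4 (0.87), a subunit of the phagocyte NADPH oxidase, Fam122a (0.87) and Isyna1 (0.85). Adgre1 went with Nfya (0.83), Irgm2 (0.81) and Treml4 (0.79), Pparg with LOC103693320 (0.81), Tent5b (0.79) and Serpinb8 (0.77), Cd163 with Fam120a (0.80), Creb5 (0.79) and LOC103690962 (0.79), and Msr1 with Pgls (0.78), Pgpep1 (0.78) and Galnt12 (0.77). For Cd68 they were Paics (0.87), Bmpr1b (0.81) and Sin3b (0.81), and r with Sin3b was 0.42 once slide means were removed. The likeness was chosen as the highest of all these genes and is given with no test.

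Genes that act with the members were described by lists. Of 23 other scavenger and engulfment receptors, Olr1 rose and Colec12 fell on D0, and the median log2 FC was 0.11. Olr1, the receptor LOX-1 for oxidised low-density lipoprotein, had a log2 FC of 0.79 ± 0.19 (SE, limma adjusted p = 0.027), and Colec12, a collectin-type scavenger receptor, one of -0.60 ± 0.14 (adjusted p = 0.018). Scarb2 (0.40, limma adjusted p = 0.019) and Scara3 (-0.41, adjusted p = 0.028) passed the adjusted p on D0 with a FC under 1.5. Both were named after their values were seen. On D28 Cd5l alone of the 23 passed (limma adjusted p = 0.0062), a protein secreted by macrophages. Its probe was well above background on 3 of 6 exposed and 0 of 6 control arrays of D28, so no fold is given. It was named for this pass after its values were seen.

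Among 13 partners of Cd14 in LPS sensing, none rose or fell on either day, though 12 on D0 and 11 on D28 had a log2 FC above 0. Their median was 0.24 on D0 and 0.16 on D28. Tlr4, the signalling receptor, stood at 0.15 (limma adjusted p = 0.68) and Tlr2 at 0.42 (adjusted p = 0.16) on D0.

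Of 25 partners and targets of PPARG, 2 rose on D0 and none on D28. By the adjusted p alone, 3 passed on D0 and 2 on D28, all higher, against 2.86% and 1.32% of all genes. Angptl4, an inhibitor of lipoprotein lipase, had a log2 FC of 1.09 ± 0.26 (SE, limma adjusted p = 0.024), with overlapping groups. It was -0.11 on D28 (adjusted p = 0.94), and between the controls it was itself higher on D28 than on D0 by 1.11 ± 0.25 (adjusted p = 0.034). Bhlhe41, a transcription factor of alveolar macrophages, had a log2 FC of 0.68 ± 0.17 on D0 (adjusted p = 0.028). With a FC under 1.5, Nr1h3 passed the adjusted p on D0 (log2 FC 0.27, limma adjusted p = 0.035). Csf2 (0.47, adjusted p = 0.033) and Bhlhe40 (0.51, adjusted p = 0.017) did so on D28. These genes were named after their values were seen.

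Of 11 genes listed for the handling of haemoglobin, haem and iron, with the cytokine gene Il10 among them, Hp and Hpx rose on D0 and Hp on D28. Hp encodes haptoglobin, the plasma protein whose complex with haemoglobin CD163 takes up, and Hpx encodes hemopexin, which binds free haem and is cleared by another receptor. Hp had a log2 FC of 0.91 ± 0.15 (SE, limma adjusted p = 0.00093) on D0 and of 0.76 ± 0.14 (adjusted p = 0.0072) on D28, with every exposed rat above every control on both days. Of all genes, 1.94% showed such a separation on D0 and 0.677% on D28. Hpx had a log2 FC of 0.90 ± 0.21 on D0 (limma adjusted p = 0.020).

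Siglec1 is also inducible by interferon, so 18 interferon-stimulated genes were set beside it. None of them rose on D0, when their median log2 FC was 0.12 and 14 were above 0, against 49.9% of all genes. On D28 the median was 0.17 and 15 were above 0, against 48.9% of all genes. On D28 Usp18, a brake on type I interferon signalling, rose by 0.61 ± 0.15 (SE, limma adjusted p = 0.044). Stat2, the gene closest to Siglec1 within groups, had a log2 FC of 0.27 on D0 (adjusted p = 0.45).

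Lists of macrophage genes were read against the shares of all genes that rose or fell, 1.79% on D0 and 0.756% on D28. Of 14 alveolar macrophage genes, Chi3l1 and Bhlhe41 rose on D0 and Chi3l1 on D28, and the median log2 FC was 0.29 on D0 and 0.04 on D28. Chi3l1, a chitinase-like lectin that other lung cells make too, had a log2 FC of 1.19 ± 0.24 (SE, limma adjusted p = 0.0062) and 0.95 ± 0.22 (adjusted p = 0.037). Of 17 genes of interstitial and tissue macrophages, C1qb, a chain of complement C1q, rose on D0 by 0.65 ± 0.13 (adjusted p = 0.0078), and the medians were 0.13 and 0.24. In this list 12 genes on D0 and 13 on D28 had a log2 FC above 0. Lyve1 (log2 FC -0.58, limma adjusted p = 0.027) and Folr2 (0.51, adjusted p = 0.039) passed the adjusted p on D0 with a FC under 1.5. Both were named after their values were seen. Of 20 genes of the monocyte and macrophage lineage, Itgam rose on both days, by 0.99 ± 0.12 (adjusted p = 0.00012) and 0.93 ± 0.12 (adjusted p = 0.00030). It encodes CD11b, which neutrophils carry as well. Of these 20 genes, 17 on D0 and 15 on D28 had a log2 FC above 0, with medians of 0.15 and 0.16. Named after their values were seen, Ctss, which encodes cathepsin S, and Lgals3, which encodes galectin-3, passed the adjusted p on D0 with a FC under 1.5 (log2 FC 0.45 and 0.30, adjusted p = 0.032 and 0.043). Csf1r, the receptor for the growth factor CSF1, and Lyz2, a lysozyme, stood at 0.01 and 0.06 on D0 (adjusted p = 0.998 and 0.949).

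**Figure D5:**
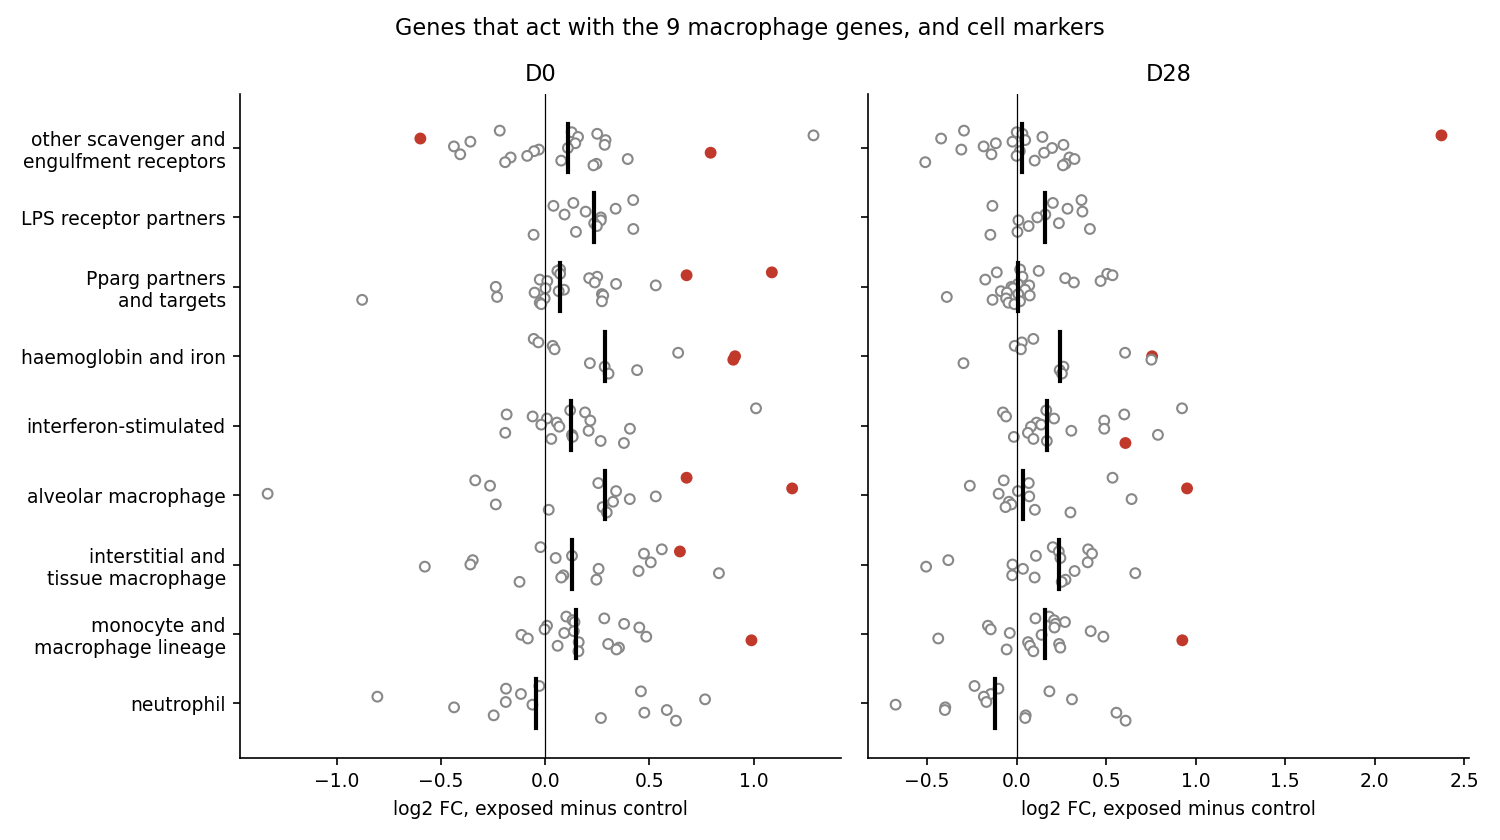
log2 FC of exposed against control rats (horizontal axis) for the genes of 9 lists (rows), on D0 (left) and D28 (right). Each point is a gene, filled red where it rose or fell, and the black bar is the median of the list. The highest point on D28 is Cd5l, whose control arrays were not well above background.

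The markers of other cells moved as follows. Of 14 neutrophil markers none rose or fell on either day, 6 had a log2 FC above 0 on D0, and their mean log2 signal ran from 6.99 to 7.97 in exposed and 7.27 to 8.21 in control rats of D0. T cell (10), B cell (8) and adipocyte (6) markers had none that rose or fell. Only 2 of the 6 adipocyte markers and 11 of the 14 neutrophil markers were well above background on all arrays. For T and B cell markers these numbers were 9 of 10 and 7 of 8. All 8 markers of type II pneumocytes had a log2 FC above 0 on D0 and 7 on D28 (medians 0.24 and 0.19), with a mean log2 signal of 14.74 to 14.98 in exposed and 14.56 to 14.67 in control rats of D0, and none rose. All 6 of type I pneumocytes were below 0 on both days (medians -0.26 and -0.25), as were all 6 of ciliated cells (-0.29 and -0.33). On D0 the mean log2 signal of the type I list was 12.36 to 12.66 in exposed and 12.77 to 12.92 in control rats. For the ciliated list it was 8.32 to 8.84 in exposed and 8.89 to 9.09 in control rats. Of 7 endothelial markers 0 on D0 and 1 on D28 were above 0, and of 6 smooth muscle markers 0 and 3. The mean log2 signal of the endothelial list on D0 was 11.99 to 12.29 in exposed and 12.31 to 12.49 in control rats. How often the mean of a list separates the groups was not counted. Of 5 cardiac muscle markers measured Myl7 fell on both days, by 0.60 and 0.63 on the log2 scale (limma adjusted p = 0.0099 and 0.011), and their mean log2 signal ran from 8.60 to 9.08 in exposed and 9.04 to 9.40 in control rats of D0. When the adjusted p alone was asked for, 1 type II marker was higher and 2 type I markers were lower on D0. Lower by the same measure were 2 cardiac muscle markers on D0 and 4 on D28, Myl7 among them, and 1 endothelial marker on D28. The part of these shifts in the values of Siglec1, Cd68 and Cd14 was not tested.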

How the data were processed

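The authors deposited scanner output for each array, with intensities per spot (background-corrected processed signals of Agilent Feature Extraction, per the file headers version 12.0.1.1 for control replicate 4 of D28 and 11.0.1.1 for the other 22 arrays), and 1 table of intensities, quantile normalized between arrays. Control spots and outlier spots were left out. A probe was kept (40418 of 45598) if 5 or more arrays had it above the 95th percentile of their 308 negative controls. The log2 signals were quantile normalized and averaged per gene, and 29 genes with missing values were dropped. Gene names were those of the 1 array file of the later version. One limma fit (3.58.1, R 4.3.3) with 4 group means, 19 residual degrees of freedom and no batch term was tested on simulated data. The number of arrays limits the precision. Nothing in the labels pairs rats.

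The members and lists were chosen with earlier results of these data known. Named genes were the members, up to 4 genes of each list that rose or fell and were well above background in a group, by size of log2 FC, and the 3 closest genes by correlation. Alternatives were 75th percentile scaling, normexp (offset 50), the deposited table, other filters and probe choices, single days, slide and replicate blocks, an intensity trend, no FC limit and 23 fits without 1 array.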

Additional observations from a re-analysis of the deposited data

Results flagged for a closer look

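Of 66 groups of rats in which the extreme values of a named gene were examined, 3 held a rat whose gap to the others passed Dixon's 95% limit, and chance flags about 1 in 20 groups. Marco in exposed replicate 1 of D28 was the lowest of 6 at a log2 signal of 1.92, where the next was 3.16, all not well above background. Hp in exposed replicate 4 of D28 was the highest of 6 at 14.49, above the next at 13.97. Itgam in exposed replicate 1 of D0 was the highest of 5 at 9.04, above the next at 8.60.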

How the results depend on the processing

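Siglec1 rose on D0 under all 12 alternatives (log2 FC 0.84 to 0.90) and in 23 of 23 fits without 1 array (0.74 to 0.99). Cd68 kept an adjusted p below 0.05 on D0 in all of them (limma, 0.00035 to 0.020). With no FC limit the members past the test were 2 on D0 and 1 on D28, in place of 1 and 0. Without 1 array they numbered 1 to 2 on D0 and 0 to 1 on D28, and 0 in the comparisons between days and of the effects. Cd14 on D0 had adjusted p-values of 0.011 to 0.109 over the 12 alternatives, 0.025 with normexp and 0.042 in the deposited table. Marco, mostly not well above background, moved most, from a fitted log2 FC of 1.04 to 0.14 on D0 with normexp and 0.20 in the deposited table.

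Over all genes, DEGs on D0 and D28 numbered 412 and 174, against 221 and 94 with normexp, 659 and 303 with no FC limit and 42 on D28 with the arrays of that day alone. Without 1 array they were 315 to 439 on D0 and 111 to 203 on D28 (111 without exposed replicate 1 of D28). The share of DEGs of D28 that were higher was 64.4%, against 56.1% with 75th percentile scaling, 72.3% with normexp and 70.8% in the deposited table.

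Signs turned only among differences that did not pass. With slide as a block, Siglec1 in controls of D28 against D0 was -0.0698. Without 1 array, 27 values turned sign. These fits ranged, for the effect on D28, from -0.045 to 0.27 for Cd163, -0.16 to 0.0455 for Mrc1, -0.0105 to 0.21 for Cd14 and -0.14 to 0.0302 for Pparg, and on D0 from -0.0861 to 0.0141 for Pparg. For the controls of D28 against D0 they ranged from -0.34 to 0.0525 for Marco, -0.25 to 0.0675 for Cd163, -0.0149 to 0.11 for Siglec1 and -0.21 to 0.0129 for Cd14, and for the difference between the effects from -0.52 to 0.0748 for Marco and -0.10 to 0.0665 for Pparg. Same-numbered rats of a day did not pair (residual r of -0.22 to 0.46, own number closest in 2 of 11). With replicate number as a block, 1 member rose on D0 and 0 on D28, and DEGs were 356 and 138. Arrays near background limit Marco, Cd5l and those genes of the lists that were not well above background on all arrays.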
